A study of Mus musculus with 24 samples.

Results

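Chromosome 8 of the mouse held 7669 of the 145143 consensus accessible intervals of an ATAC-seq series on embryonic stem cells. The members were chosen by position alone, as every interval that the authors' annotated peak list (build mm10) places on chromosome 8, and 6882 of them passed the filter on low counts, of 129515 intervals in all. They ran from chr8:3023965 to 129268783. Introns held 3501 of the intervals (45.7%), intergenic DNA 2244 (29.3%), promoters by the authors' annotation 903 (11.8%), exons 562 and transcript ends 459. Median width was 741 bp on chromosome 8 and 735 bp on the other autosomes, and intervals over 50 kb from an annotated transcription start site (TSS) made up 14.2% against 12.3%.

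ATAC-seq counts the places where a transposase can insert adapters, so an interval's count follows both how open the chromatin is and how many copies of the DNA a cell carries. Cultured mouse embryonic stem cells often gain a copy of chromosome 8, which gives the cells a growth advantage, and the gain can spread through a line during passage. The chromosome carries several genes known from these cells, among them Zfp42 (Rex1, a marker of the naive state), Klf2 (a factor of the naive pluripotency network), Cdh1 (E-cadherin) and Ctcf (the insulator protein that anchors chromatin loops). Firre is a long noncoding RNA made from the X chromosome that stays in the nucleus.

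Firre was induced with doxycycline in lines with an inducible transgene, and doxycycline was also given to control lines to tell the effect of the drug from that of Firre. The wild type control line had the label genotype WT, and the wild type Firre line the label Firre inducible transgene. The knockout control line was Firre KO, and the knockout Firre line was Firre KO with the Firre inducible transgene, so both knockout lines lacked Firre at its own locus. The labels do not say from which promoter the transgene was driven or whether the control lines carry any part of the inducible system. All cells grew on gelatin with serum, LIF and the inhibitors PD0325901 and CHIR99021. Each line had 1 library at 0, 30, 60, 90, 120 and 150 min, and the 60 min library of the wild type Firre line was not analysed here, which leaves 23 libraries. No label names separate cultures or clones, so a p-value here reflects only how libraries of 1 line vary, which may be technical, and genotype, clone and culture cannot be told apart.

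Total counts ran from 5725518 to 14977148 per library. The 20 intervals whose nearest TSS is that of Firre summed to 82.9 to 101 CPM, a count relative to the total of its library, in the wild type control libraries and to 6.67 to 14.5 CPM in the knockout control libraries. They summed to 117 to 141 CPM in wild type Firre libraries and to 18.4 to 28.9 CPM in the knockout Firre line, so the 4 lines did not overlap. Promoter intervals were found for 10 of 10 naive pluripotency markers, with a summed level of 401 to 536 CPM over the 23 libraries. They were found for 6 of 9 fibroblast markers, with a sum of 37.5 to 47.6 CPM and none for Col3a1, Fap and Lum. Of 10 germ layer and trophoblast markers 8 had one, with a sum of 134 to 153 CPM and none for Sox1 and Cdx2. Each interval found, in all 3 sets, had a mean of at least 1 CPM in every line, and the sums cover unequal numbers of genes. The share of counts in promoters was 39.0% ± 0.592 (SD, n = 6) in the wild type control, 40.8% ± 2.06 (n = 5) in the wild type Firre line, 42.1% ± 0.964 (n = 6) in the knockout control and 41.8% ± 0.547 (n = 6) in the knockout Firre line. It reached 43.1% in each of the knockout control libraries of 30 and 90 min, the highest of that line, and 44.3% in the wild type Firre library of 150 min.

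The promoters of 6 chromosome 8 genes on which results below turn are shown by the 250 bases before the annotated start, from RefSeq (GRCm38.p6), 5′ to 3′ on the gene's strand. Each stretch lies wholly inside a tested interval. Capitals mark the letters GGGCGG (the GC box), CCAAT (the CCAAT box), TATAAA (the TATA box) and GAANNTTC (part of the heat shock element) on either strand, so that CCGCCC and ATTGG are the first and the second read on the other strand. Zfp42 lies at chr8:43307010-43307259 on the minus strand, Klf2 at chr8:72318812-72319061, Dnajb1 at chr8:83607925-83608174, Acsl1 at chr8:46470787-46471036 and Nr3c2 at chr8:76902080-76902329, all 4 on the plus strand. The adhesion receptor gene Adgrg1 has a first annotated start after chr8:94976859-94977108 and a second after chr8:94984149-94984398, on the plus strand.
Zfp42: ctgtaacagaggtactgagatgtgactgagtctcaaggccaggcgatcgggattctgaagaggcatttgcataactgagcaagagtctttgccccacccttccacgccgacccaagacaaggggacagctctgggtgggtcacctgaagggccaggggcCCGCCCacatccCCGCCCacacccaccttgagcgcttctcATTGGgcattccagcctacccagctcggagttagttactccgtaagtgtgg
Klf2: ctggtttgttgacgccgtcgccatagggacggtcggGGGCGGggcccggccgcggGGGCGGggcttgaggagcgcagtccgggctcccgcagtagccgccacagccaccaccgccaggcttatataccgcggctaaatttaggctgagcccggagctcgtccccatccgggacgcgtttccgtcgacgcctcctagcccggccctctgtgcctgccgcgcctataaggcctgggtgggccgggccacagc
Dnajb1: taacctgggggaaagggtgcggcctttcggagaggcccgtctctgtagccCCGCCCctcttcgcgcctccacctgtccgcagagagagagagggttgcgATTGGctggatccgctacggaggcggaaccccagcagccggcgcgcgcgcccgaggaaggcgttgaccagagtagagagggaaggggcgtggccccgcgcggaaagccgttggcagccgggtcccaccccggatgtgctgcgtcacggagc
Acsl1: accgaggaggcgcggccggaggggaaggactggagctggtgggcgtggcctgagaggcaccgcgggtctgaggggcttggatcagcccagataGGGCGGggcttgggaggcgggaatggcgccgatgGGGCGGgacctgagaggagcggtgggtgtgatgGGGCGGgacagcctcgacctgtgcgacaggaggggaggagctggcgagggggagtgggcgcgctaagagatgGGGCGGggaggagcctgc
Nr3c2: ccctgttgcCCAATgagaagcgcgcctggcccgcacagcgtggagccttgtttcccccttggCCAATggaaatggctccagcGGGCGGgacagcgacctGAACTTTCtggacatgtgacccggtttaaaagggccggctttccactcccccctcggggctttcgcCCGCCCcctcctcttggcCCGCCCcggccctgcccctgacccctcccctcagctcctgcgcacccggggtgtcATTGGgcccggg
Adgrg1 first start: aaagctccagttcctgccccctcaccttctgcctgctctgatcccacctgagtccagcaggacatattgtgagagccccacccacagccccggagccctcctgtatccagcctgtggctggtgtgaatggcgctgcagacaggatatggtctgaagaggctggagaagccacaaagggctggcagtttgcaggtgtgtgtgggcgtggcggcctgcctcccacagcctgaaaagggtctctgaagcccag
Adgrg1 second start: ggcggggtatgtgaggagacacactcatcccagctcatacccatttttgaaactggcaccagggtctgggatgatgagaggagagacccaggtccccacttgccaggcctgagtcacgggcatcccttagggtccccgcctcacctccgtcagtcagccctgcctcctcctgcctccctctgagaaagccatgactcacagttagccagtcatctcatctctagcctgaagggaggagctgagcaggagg
GGGCGG occurs 4 times in the Acsl1 stretch, 3 times in that of Nr3c2, 2 times each in Zfp42 and Klf2 and once in Dnajb1. Nr3c2 also holds CCAAT 3 times and GAANNTTC once, and Zfp42 and Dnajb1 hold CCAAT once each. Neither Adgrg1 stretch holds any of these letters, and each has 4 CpG dinucleotides against 29 in Klf2, 27 in Dnajb1, 20 in Acsl1, 17 in Nr3c2 and 9 in Zfp42. Over all 32851 promoter windows of this length in the RefSeq table, 32.7% hold GGGCGG, 33.8% CCAAT, 12.4% TATAAA and 6.69% GAANNTTC. Over the 1442 windows of chromosome 8 the shares are 33.7%, 36.1%, 11.6% and 7.42%. A match describes the letters alone.

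Chromosome 8 as a whole had the same level in the 4 lines to within a few hundredths of a log2 unit. For each library an offset was taken as the median over the tested chromosome 8 intervals of the log2 CPM, less the mean of the 4 lines, minus the same median over the other autosomes. The offset ran from -0.0129 to 0.0261 in the wild type control libraries (median -0.00196), from -0.00599 to 0.0230 in the wild type Firre libraries, from -0.0242 to 0.00550 in the knockout control libraries (median -0.0105) and from -0.0103 to 0.00669 in the knockout Firre libraries. The ranges of all 4 lines overlap. The means were 0.00138 ± 0.0131 (SD, n = 6), 0.00662 ± 0.0104 (n = 5), -0.0103 ± 0.0104 (n = 6) and -0.000356 ± 0.00692 (n = 6). The share of autosomal counts on chromosome 8 was 5.39% to 5.57% over all libraries.

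**Figure D1:**
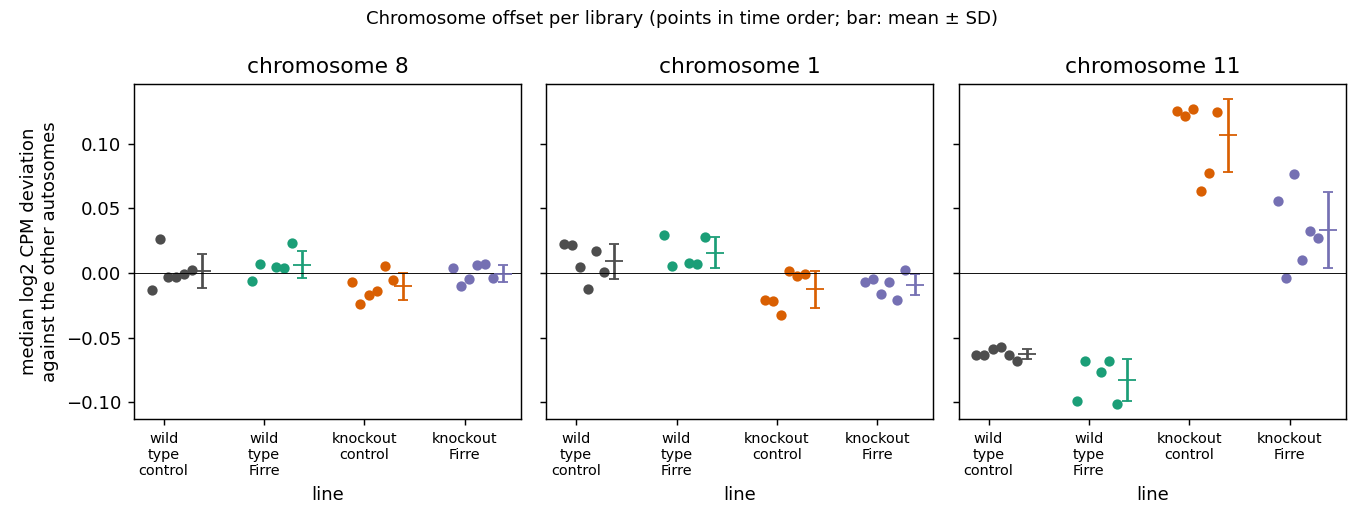
Offset of chromosome 8, and of chromosomes 1 and 11 for comparison, in each of the 23 libraries (y axis, log2 units against the other autosomes; x axis, line; points in time order within a line; bars, mean ± SD). All chromosome 8 points lie between -0.0242 and 0.0261, while chromosome 11 runs from -0.101 in a wild type Firre library to 0.127 in a knockout control library.

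Of the 4 comparisons of lines, 0 passed the two-sided exact permutation test over libraries for the chromosome 8 offset. The knockout control lay 0.0117 below the wild type control (exact p = 0.115, Benjamini-Hochberg adjusted over the 4 comparisons 0.229), with a 95% permutation interval of the difference from -0.0272 to 0.00234. The knockout Firre line lay 0.00999 above the knockout control (exact p = 0.0844, adjusted 0.229, interval -0.00128 to 0.0211), and the wild type Firre line 0.00524 above the wild type control (exact p = 0.474, interval -0.0119 to 0.0207). The knockout Firre line minus the wild type Firre line gave -0.00698 (exact p = 0.253, adjusted 0.338, interval -0.0181 to 0.00388). With line labels exchanged only within a time, the knockout Firre line lay above the knockout control at 6 of 6 times (exact permutation p = 0.03125, the smallest this design allows, adjusted 0.125), and the other 3 comparisons had adjusted p of 0.375 to 0.5. With free exchange, the smallest p these designs allow is 0.00216 with 6 against 6 libraries and 0.00433 with 6 against 5. If counts scale with copies, an extra copy (3 in place of 2) in every cell of 1 of the lines compared would move the difference between them by 0.585, and an extra copy in 10% of its cells by 0.0704. Of the bounds of the 4 intervals the farthest from 0, -0.0272, would equal an extra copy in 3.81% of wild type control cells with none in the knockout control, and the highest upper bound, 0.0211, one in 2.95% of knockout Firre cells with none in the knockout control. A gain that all 4 lines share would not show, since the offsets are relative between lines. Without chromosome 11 among the other autosomes, the differences of knockout control to wild type control and of knockout Firre to wild type Firre turned sign, to 0.00206 and 0.00224.

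Chromosome 11 gives the scale of a chromosome that did differ in these libraries. Its offset was 0.169 higher in the knockout control than in its wild type counterpart (exact permutation p = 0.00216, adjusted 0.00433) and 0.0734 lower in the knockout Firre line than in the knockout control (adjusted 0.00577). Chromosome 11 minus chromosome 8, taken within each library, was 0.181 higher in the knockout control than in its wild type counterpart and 0.123 higher in the knockout Firre line than in the wild type Firre line (exact permutation test, adjusted p = 0.00433 for each). It was 0.0834 lower in the knockout Firre line than in the knockout control (exact permutation test, adjusted p = 0.00866) and 0.0253 lower in the wild type Firre line than in the wild type control (exact permutation test, adjusted p = 0.0325). Chromosome 1 also passed between the Firre lines, with -0.0245 for knockout Firre minus wild type Firre (exact permutation p = 0.00433, adjusted 0.0173). Between the control lines it gave -0.0217 (exact permutation test, adjusted p = 0.0519), and the remaining comparisons had adjusted p of 0.571 and 0.591. The first value is close in size to the farthest bound for chromosome 8, -0.0272. Within lines the pooled SD of the chromosome 8 offset was 0.0105, in a range of 0.00976 to 0.0220 over the 19 autosomes.

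**Figure D2:**
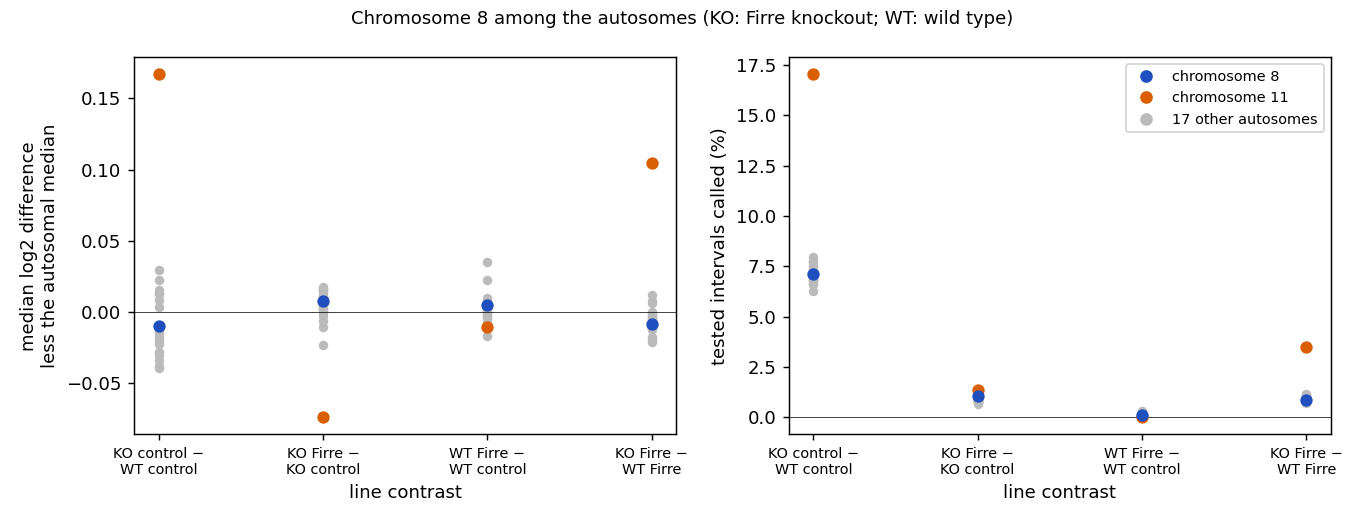
Chromosome 8 (blue) among the 19 autosomes for the 4 line comparisons: left, the median fitted log2 difference of its intervals less the median of all autosomal intervals; right, the share of tested intervals called at an edgeR adjusted p of 0.05 or less. Chromosome 8 lies within the spread of the grey autosomes in each comparison, with 7.13% of its intervals called between the control lines. Chromosome 11 (orange) lies apart between the control lines and between the Firre lines. On the left it also lies below the other autosomes for the knockout Firre line against the knockout control (-0.0737).

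Along the chromosome, none of 13 bins of 10 Mb passed the test between lines. Of 52 exact permutation tests (13 bins and 4 comparisons), 0 passed after adjustment, and 0 passed in bins of 5 Mb and 20 Mb, without promoters, without both the 30 and the 90 min library of the knockout control or without any 1 library. The smallest exact permutation p with these libraries is 0.00216, so a difference confined to a single bin could not pass adjustment over 52 tests. These counts of 0 therefore do not show that no bin differs. The bin with the largest difference was that from 50 to 60 Mb, which has the fewest tested intervals, 144. Its offset ran from -0.0906 to 0.0241 in the wild type control, from -0.0611 to 0.0602 in the wild type Firre line, from -0.00253 to 0.124 in the knockout control and from -0.0536 to 0.0751 in the knockout Firre line. The knockout control and wild type control overlap there, and their means differ by 0.118 (exact permutation p = 0.00433, adjusted 0.0750). The knockout Firre line lay 0.0721 below the knockout control in that bin (adjusted 0.225). In the bin from 120 to 130 Mb, the densest with 982 tested intervals, the knockout control lay 0.0482 below the wild type control (exact permutation p = 0.0152, adjusted 0.197). In the bin from 20 to 30 Mb the knockout Firre line lay 0.0413 above the knockout control, and in that from 40 to 50 Mb 0.0224 below it (exact permutation test, adjusted 0.0750 for each).

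**Figure D3:**
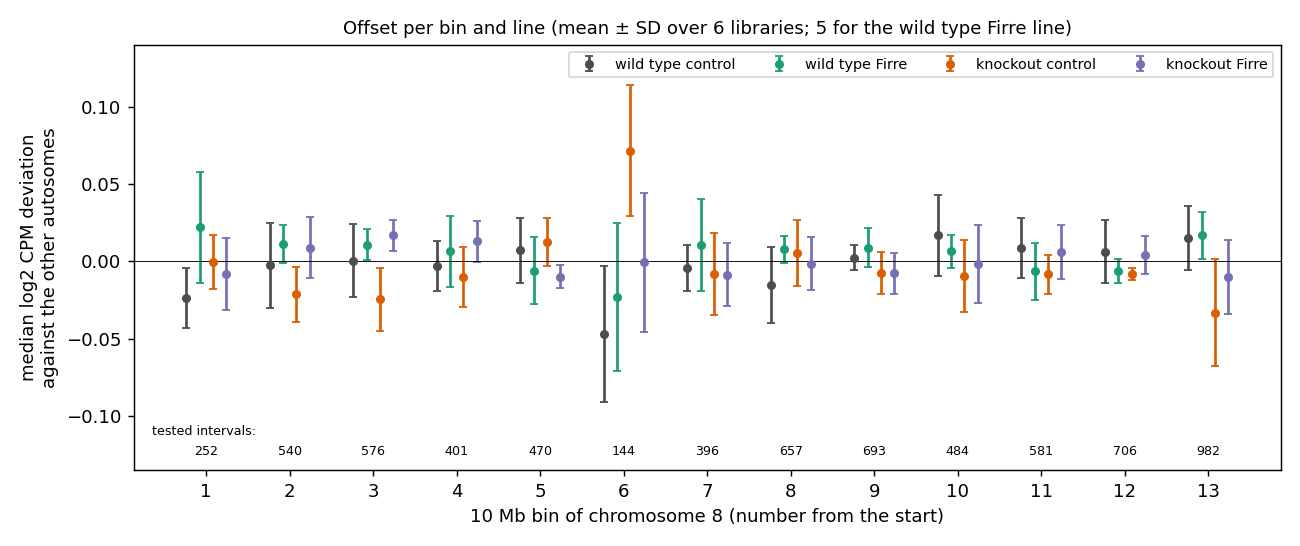
Offset of the 13 bins of 10 Mb of chromosome 8 in the 4 lines (mean ± SD over libraries, log2 units against the other autosomes), with the number of tested intervals under each bin. Bin 6, from 50 to 60 Mb with 144 tested intervals, has the widest gap between the knockout control (0.0715 ± 0.0423) and the wild type control (-0.0469 ± 0.0438).

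The same order of thinly and densely covered bins was seen on the other autosomes. There, leaving out chromosome 11, the median difference of knockout control to wild type control was above 0 in 19 of 22 bins with under 200 tested intervals (median of the bins 0.0657) and in 25 of 95 bins with 500 or more (median -0.0253). For the knockout Firre line against the knockout control it was above 0 in 2 of the 22 thin bins (median -0.0577) and in 74 of the 95 dense ones (median 0.0164). On the same measure, the median of the fitted differences, the 50 to 60 Mb bin of chromosome 8 gave 0.137 and -0.0620. The level of the median interval was lower in the thin bins, 2.97 CPM against 3.97 CPM in the dense ones. The part that interval level and density play was not tested.

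Local runs were sought with windows of 25 consecutive tested intervals whose median fitted difference, less the median of all autosomes, passed 0.2 on the log2 scale. Between the knockout control and the wild type control, 47 of 6858 chromosome 8 windows were higher (0.685%) and 71 were lower (1.04%), against 0.856% and 1.48% of the windows of the other autosomes without chromosome 11. The knockout Firre line had 15 higher and 17 lower windows against the knockout control (0.219% and 0.248%, against 0.262% and 0.257% on those other autosomes). Against the wild type Firre line it had 8 higher and 20 lower (0.117% and 0.292%, against 0.101% and 0.619%). In the wild type Firre line against the wild type control, 0 windows passed in either direction, where those other autosomes had 0.0291% higher and 0.0528% lower. Overlapping windows joined into 15, 4, 0 and 5 runs for the comparisons of knockout control to wild type control, knockout Firre to knockout control, wild type Firre to wild type control and knockout Firre to wild type Firre.

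The knockout control had 5 higher runs against the wild type control. The longest, chr8:49194280-56567692, spans 7.37 Mb with 67 intervals and 13 promoter intervals, among them those of Neil3 (a DNA glycosylase), Vegfc (a lymphatic growth factor), Hpgd and Glra3. Its median was 0.16, and 8 of its intervals were called higher, where 5.5% of all tested intervals were. The runs were found by these same differences, so counts of calls inside them are description and not a test. A second, chr8:97447900-103624276, spans 6.18 Mb with 45 intervals around Cdh8, a neuronal cadherin, and 7 of them were called higher. The window with the highest median of the chromosome lay in it, at chr8:98772070-102365868. In that window the median offset ran from -0.230 to 0.0705 in the wild type control, from -0.148 to 0.0230 in the wild type Firre line, from 0.0731 to 0.299 in the knockout control and from -0.0404 to 0.0570 in the knockout Firre line. The knockout control libraries there lie above all libraries of the other lines, with a window median of 0.35 over the autosomes, a value by which the window was picked. The other 3 higher runs held Tusc3, Gabarapl2 and Chst5, and Mon1b, Adamts18 and Vat1l.

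The 10 lower runs of the knockout control were short, from 0.149 to 0.723 Mb. They include chr8:12467332-12865527 around Tubgcp3 (a gamma-tubulin complex subunit) with 40 intervals, of which 35 have a negative difference, and chr8:107084810-107425642 with 41 intervals around Nfat5 and Nqo1. Another, chr8:119195801-119441476, holds the promoters of Hsbp1, Mlycd and Osgin1 in 29 intervals with a median of -0.26. Negative differences were found for 28 of the 41 and 22 of the 29 intervals, and promoters made up 6 and 4. A run is lower by its median, and the promoters in it need not be. The Nqo1 promoter was called higher in the knockout control, by 0.32 (SE 0.09, edgeR adjusted p = 0.00966). That of Hsbp1 was not called, at 0.06 (SE 0.09, edgeR adjusted p = 0.760). The lowest window, chr8:122859211-122992183, had 5 of 25 intervals called lower and a median of -0.29. Over all tested intervals 2.47% were called lower, and the window was picked by these same differences. Its median offset ran from 0.0306 to 0.164 in the wild type control and from -0.356 to 0.0676 in the knockout control, so these lines overlap. For the knockout Firre line against the knockout control, the longest run was lower, chr8:96339311-103580612 (7.24 Mb, 53 intervals, median -0.22), and it covers the Cdh8 stretch where the knockout control, which both comparisons share, was high. No stretch of 4 or more neighbouring intervals called in the same direction was found on chromosome 8 in any of the 4 comparisons, where the other autosomes without chromosome 11 held 8 between the control lines in 110330 tested intervals, 3 between the Firre lines and 0 in the other 2 comparisons. Chromosome 11 held 33 between the control lines. A count of 0 on 6882 intervals is near the background of the other autosomes.

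**Figure D4:**
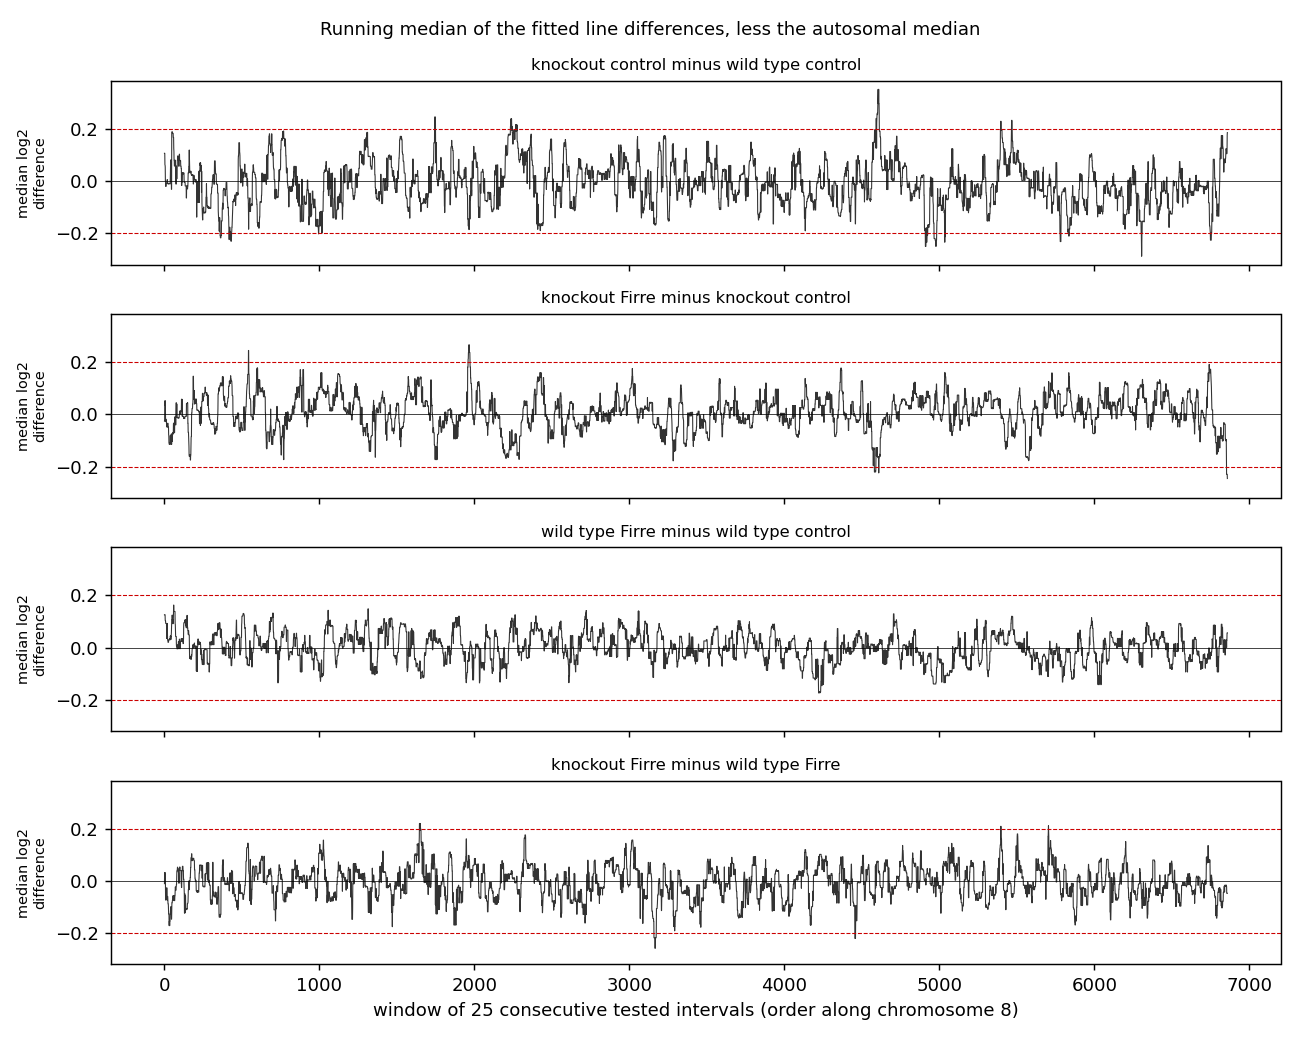
Running median of the fitted log2 line difference over 25 consecutive tested intervals of chromosome 8, less the median of all autosomal intervals, in the order of the intervals (x axis), for the 4 comparisons; dashed lines mark 0.2 and -0.2. Excursions past the lines are short, the highest being 0.35 between the control lines, and the wild type Firre line against the wild type control shows none.

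Single intervals differed between the knockout control and the wild type control. Of the 6882 tested chromosome 8 intervals, 491 were called at an edgeR quasi-likelihood adjusted p of 0.05 or less, 323 higher and 168 lower in the knockout control. That is 7.13% against a background of 7.97% over all tested intervals, of which 5.5% were higher and 2.47% lower. Of 1131 tested promoter intervals 176 were higher and 14 lower, 15.6% higher against 16.4% over all promoters and 1.24% lower against 1.38%. The median difference was 0.08 over chromosome 8 promoters, 0.09 over all promoters and -0.06 over the other chromosome 8 intervals. Both promoter shares are near the background. The split of the calls turned with the scaling: scaling by total counts gave 158 higher and 418 lower, loess offsets 127 and 143, and DESeq2 248 and 28. With total counts the median of all tested intervals moved from -0.02 to -0.12. The promoter share was higher in all 6 knockout control libraries (41.0% to 43.1%) than in all 6 wild type control libraries (38.1% to 39.7%). Adjusted for it in the edgeR fit, 0 of 6882 chromosome 8 intervals were called, against 56 of all 129515. An unadjusted p under 0.05 was found for 518 and 10792 of these. Without both the 30 and the 90 min library of the knockout control, 70 of 7016 were called, 51 higher and 19 lower. Over all 131787 intervals tested in that fit, 2135 were called.

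Gene lists of the chromosome follow, each counted over 1 promoter interval a gene, the one with the highest mean CPM. Of 123 genes in 8 lists, 84 had a tested promoter interval. Between the control lines, 20 of the 84 promoters were called higher (23.8%, against 16.4% over all promoters) and 1 lower (1.19% against 1.38%) in the knockout control. The shares over all promoters stand beside the counts of the lists, but they cover every tested promoter interval and not the strongest of each gene. The sets are therefore unlike, and no enrichment of a list was tested. All 20 stayed above 0 under scaling by total counts, 19 with loess offsets and 10 adjusted for promoter share. The numbers still called were 13, 2 and 0, and 3 without both the 30 and the 90 min library of the knockout control. Loess offsets called 8 of the 84 in all, of which 2 are among these 20.

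In DNA replication and repair, 6 of 12 promoters were higher and 0 lower (16.4% and 1.38% over all promoters). The list median was 0.26, against 0.08 for all chromosome 8 promoters. The second covers every promoter interval and not the strongest of each gene, so the sets are unlike. The list median was 0.17 with total counts, 0.04 with loess offsets and -0.02 adjusted for promoter share. The 6 were Mcm5 (a subunit of the replicative helicase), Gins2 and Gins4 (subunits of the GINS complex that goes with it), Mcph1, Neil3 and Cul4a (the scaffold of a ubiquitin ligase). The Gins2 promoter ran from 44.1 to 56.7 CPM in wild type control libraries (median 49.6) and from 56.1 to 80.1 CPM in the knockout control (median 65.2). These ranges overlap slightly, and the log2 difference was 0.43 (SE 0.09, edgeR adjusted p = 0.000317). The Neil3 promoter ran from 9.89 to 12.0 CPM (median 11.05) in the wild type control and from 12.9 to 16.2 CPM (median 13.2) in the knockout control. Those ranges do not overlap, and the difference was 0.31 (SE 0.10, adjusted p = 0.0371).

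Among chromatin and genome architecture genes, 4 of 15 promoters were higher and 0 lower (16.4% and 1.38% over all promoters). The list median was 0.15, and it was 0.06 with total counts and -0.07 both with loess offsets and adjusted for promoter share. They were Hmgb2 (an architectural protein of the HMG box family), Asf1b (a histone chaperone), Ing1 (a reader of a histone mark) and Ankrd11. Hmgb2 had the largest difference, from 48.0 to 57.1 CPM in the wild type control (median 52.9) to 61.1 to 87.2 CPM in the knockout control (median 68.9). The groups do not overlap, with a log2 difference of 0.45 (SE 0.09, edgeR adjusted p = 0.000125). The Ctcf promoter was among the 11 that did not pass, with 41.3 to 49.3 CPM in wild type control libraries (median 45.6), 44.1 to 60.6 CPM in the knockout control (median 51.4) and a difference of 0.17 (SE 0.08, adjusted p = 0.211).

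Among 11 pluripotency and signalling promoters, Zfp42 and Klf2 were higher and 0 lower (16.4% and 1.38% over all promoters). The list median was 0.16, and it was 0.07 with total counts, -0.03 with loess offsets and -0.05 adjusted for promoter share. With loess offsets the calls turned, to 0 higher and 3 lower. The Zfp42 promoter, printed above, ran from 28.1 to 34.7 CPM in wild type control libraries (median 30.5), from 29.0 to 41.5 CPM in wild type Firre libraries (median 33.0), from 33.1 to 43.6 CPM in the knockout control (median 38.5) and from 31.6 to 43.5 CPM in the knockout Firre line (median 34.4). All 4 ranges overlap, and the difference between the control lines was 0.31 (SE 0.09, edgeR adjusted p = 0.0127). The Klf2 promoter ran from 37.4 to 44.5 CPM in wild type control libraries (median 41.5) and from 43.5 to 61.6 CPM in the knockout control (median 50.9), with a difference of 0.32 (SE 0.09, adjusted p = 0.0104). Cdh1 did not pass, with 18.6 to 24.1 CPM (median 21.0) against 20.8 to 29.4 CPM (median 26.1) and 0.26 (SE 0.09, adjusted p = 0.0519). No promoter interval was matched to Sall1.

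Of 10 promoters of metal, oxidative and protein stress genes, 4 were higher and 0 lower (16.4% and 1.38% over all promoters). The list median was 0.17, and it was 0.08 with total counts, 0.05 with loess offsets and 0.07 adjusted for promoter share. They were Dnajb1 (a heat shock co-chaperone), Nqo1 (a quinone reductase), Mt2 (a metallothionein) and Herpud1 (a gene of the unfolded protein response). The Dnajb1 promoter ran from 36.8 to 48.8 CPM in wild type control libraries (median 45.8) and from 51.0 to 72.7 CPM in the knockout control (median 64.1). The groups do not overlap, and the difference was 0.48 (SE 0.09, edgeR adjusted p = 4.02e-05). In the other lists, Zfpm1 (a cofactor of GATA factors) was higher among 14 developmental transcription factors (median 0.03). Got2 and Vdac3 were higher among 12 genes of basic cell functions (median 0.07). Itgb1 (integrin beta 1) was higher among 11 cadherins and adhesion genes (median 0.19), where Adgrg3 was lower. Over all promoters 16.4% were called higher and 1.38% lower. The medians of the developmental and basic lists were -0.06 and -0.03 with total counts and -0.06 and -0.12 with loess offsets. Adjusted for promoter share they were -0.11 and -0.19. Loess offsets called 2 developmental promoters and 1 basic promoter lower and 0 of either list higher. The median of the adhesion list was 0.10 with total counts and 0.05 both with loess offsets and adjusted for promoter share. None of the 20 carboxylesterase genes, a cluster expressed in liver, had a promoter interval.

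Outside the lists, the higher promoters with the largest differences between the control lines were those of Fkbp8, Wdr17, Nr3c2 and Acsl1. The promoter of Nr3c2, the mineralocorticoid receptor gene, ran from 21.5 to 27.8 CPM in wild type control libraries (median 24.7) and from 30.1 to 42.2 CPM in the knockout control (median 34.3). The groups do not overlap, and the difference was 0.53 (SE 0.09, edgeR adjusted p = 2.58e-05). The promoter of Acsl1, an acyl-CoA synthetase gene, ran from 37.4 to 49.3 CPM (median 45.9) against 52.7 to 75.5 CPM (median 62.2), again without overlap, with 0.50 (SE 0.09, adjusted p = 3.07e-05). At Wdr17 (chr8:54723983-54724852, in the long higher run) the difference was 0.56 (SE 0.10, adjusted p = 2.34e-05). These 3 calls held with each library left out, and none held adjusted for promoter share (adjusted p 0.868 to 0.986). The interval at Fkbp8, at 1.72 to 3.28 CPM in wild type control libraries, lost its call without any 1 of 8 libraries, among them the wild type control library of 90 min and the knockout control library of 90 min (adjusted p = 0.131 and 0.133). The lower promoters were those of Pnpla6, Mir486, C630050I24Rik and Lrp2bp, with differences from -0.86 to -0.67 at medians of 1.80 to 3.58 CPM in wild type control libraries, and each lost its call without both the 30 and the 90 min library of the knockout control.

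Away from promoters the largest differences lay at intervals of a few CPM. The intron 2 of 3 of the noncoding gene 2310008N11Rik (chr8:26833322-26833908) ran from 1.31 to 2.44 CPM in wild type control libraries (median 1.96) and from 3.33 to 5.07 CPM in the knockout control (median 3.61). The groups do not overlap, and the difference was 1.00 (SE 0.20, edgeR adjusted p = 0.00019). An interval in intron 3 of 3 of Fam155a (chr8:9507284-9508414) ran from 2.27 to 4.44 CPM against 5.74 to 6.44 CPM, with 0.74 (SE 0.15, adjusted p = 0.000292). The lowest was at the end of Znrf1 (chr8:111607092-111607414, -1.21, SE 0.35, adjusted p = 0.0152), at a median of 1.40 CPM in wild type control libraries and 0.531 CPM in the knockout control. Of the 16 named intervals of this comparison, 5 were called with every library left out in turn.

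With the transgene, fewer intervals differed. In the knockout background 72 chromosome 8 intervals were called, 47 higher and 25 lower in the knockout Firre line than in the knockout control (1.046% against a background of 0.913%, or 0.569% higher and 0.344% lower), and 2 of them were promoters (background 0.527%). Without both the 30 and the 90 min library of the knockout control 39 were called, and without the knockout Firre library of 150 min 27. The higher promoter was that of the second start of Adgrg1, a receptor known from brain development and haematopoietic cells, at chr8:94983801-94984931. In the knockout Firre line it stood at 4.46, 5.10, 6.09, 8.26, 11.7 and 11.6 CPM at 0, 30, 60, 90, 120 and 150 min. In the knockout control it stood at 2.97, 2.59, 4.37, 3.67, 3.00 and 6.44 CPM, below the knockout Firre line at every time although the ranges overlap. The log2 difference was 1.02 (SE 0.16, edgeR adjusted p = 0.000194), the call held with each library left out, and it was lost without a term for time (adjusted p = 0.163). The wild type Firre line stood at 3.59, 5.61, 5.76, 8.25 and 8.14 CPM from 0 to 150 min without 60 min, and its difference to the wild type control was 0.48 (SE 0.18, adjusted p = 0.488). In the test of the response to induction, this interval gave 0.56 (SE 0.33, adjusted p = 1.00). The first start of Adgrg1 had 8.42 to 12.0 CPM in the knockout control (median 10.7) and 8.76 to 12.2 CPM in the knockout Firre line (median 10.9), with a difference of 0.03 (SE 0.10, adjusted p = 0.936).

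The lower promoter of the knockout Firre line was that of Mcf2l, a guanine nucleotide exchange factor gene, in an interval whose nearest start is that of the antisense gene Gm15351, and reads of the 2 genes cannot be told apart here. It had 9.999 to 12.2 CPM in the knockout control (median 10.3) and 5.61 to 9.29 CPM in the knockout Firre line (median 7.69), without overlap, and a difference of -0.49 (SE 0.11, edgeR adjusted p = 0.00927). Among distal intervals, one at chr8:116827291-116827527, between genes and nearest to Gm10620, went from 1.59 to 2.28 CPM in the knockout control (median 1.87) to 0.288 to 0.904 CPM in the knockout Firre line (median 0.721). The groups do not overlap, and the difference was -1.48 (SE 0.30, adjusted p = 0.00279). An interval in the last intron of Arhgef7, a guanine nucleotide exchange factor gene, was 1.25 higher (SE 0.27, adjusted p = 0.00611) at medians of 0.794 and 2.08 CPM, and was not called without the knockout Firre library of 120 min (adjusted p = 0.0661). Of the 10 named intervals, 3 were called with every library left out in turn.

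In the wild type background 8 chromosome 8 intervals were called, 4 higher and 4 lower in the wild type Firre line than in the wild type control (0.116% against a background of 0.0818%, or 0.061% higher and 0.0208% lower), and none was a promoter (background 0.059%). An intergenic interval at -14029 bp from the start of Zfp42, chr8:43320572-43321358, was higher. It stood at 4.52, 4.57, 4.90, 5.59 and 6.07 CPM in wild type Firre libraries at 0, 30, 90, 120 and 150 min, and from 1.71 to 3.69 CPM in the wild type control (median 2.64). The groups do not overlap, the gap was present at 0 min, and the difference was 0.88 (SE 0.17, edgeR adjusted p = 0.0034). The call was lost without the 150 min library of the wild type Firre line (adjusted p = 0.056) or of the wild type control (0.106), and adjusted for promoter share (0.0918). In the knockout background the same interval was at 2.41 to 4.75 CPM in the control (median 3.53) and 2.12 to 3.31 CPM in the Firre line (median 2.70), a difference of -0.50 (SE 0.18, adjusted p = 0.176). The other higher intervals lay near Gm45703 (0.54, SE 0.11, adjusted p = 0.00617) and Gm22968 (0.42, SE 0.10, adjusted p = 0.0285), and lower ones near Gm10620 (chr8:116790017-116790881, -0.90, SE 0.19), in intron 6 of 7 of Sh2d4a (-0.84, SE 0.18) and near Tle7 (-0.48, SE 0.11). Left-out libraries ended the call at all but 1 of the 8, and without the 0 min library of the wild type Firre line 2 intervals of chromosome 8 were called in all.

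Called in the same direction in both transgenic lines, each against its own control, were 1 interval among the higher ones (of 47 and of 4) and 2 among the lower ones (of 25 and of 4). Such overlaps were not counted over all tested intervals, so these counts have no background and show nothing particular to chromosome 8. These comparisons share no library, though they share 1 estimate of the spread. The higher one, chr8:115477161-115478623, lies between genes, with the noncoding gene 4930488N15Rik nearest. It had 1.18 to 2.201 CPM in wild type control libraries (median 1.92) and 3.18 to 5.85 CPM in wild type Firre libraries (median 3.62), and 0.507 to 3.71 CPM in the knockout control (median 1.66) and 2.45 to 4.49 CPM in the knockout Firre line (median 3.96). Only the wild type pair is free of overlap. The differences were 1.21 (SE 0.21, edgeR adjusted p = 0.000328) and 1.01 (SE 0.21, adjusted p = 0.00283). At 0 min the Firre lines were at 3.59 and 3.74 CPM and the controls at 2.01 and 2.03 CPM.

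A lower interval of both transgenic lines lies in intron 5 of 15 of Zfhx3 (chr8:108665924-108666639), a gene for a zinc finger and homeobox transcription factor. It had 4.44 to 6.43 CPM in wild type control libraries (median 5.51) and 1.99 to 4.18 CPM in wild type Firre libraries (median 2.85). In the knockout background it had 5.05 to 9.76 CPM in the control (median 6.04) and 3.02 to 4.39 CPM in the Firre line (median 3.84). Neither pair overlaps, and the differences were -0.84 (SE 0.17, edgeR adjusted p = 0.00442) and -0.85 (SE 0.15, adjusted p = 0.000198). At 0 min the Firre lines stood at 1.99 and 3.02 CPM and their controls at 4.44 and 8.65 CPM. The call in the wild type background was lost without the wild type Firre library of 0 min or of 90 min (adjusted p = 0.0669 and 0.146).

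**Figure D5:**
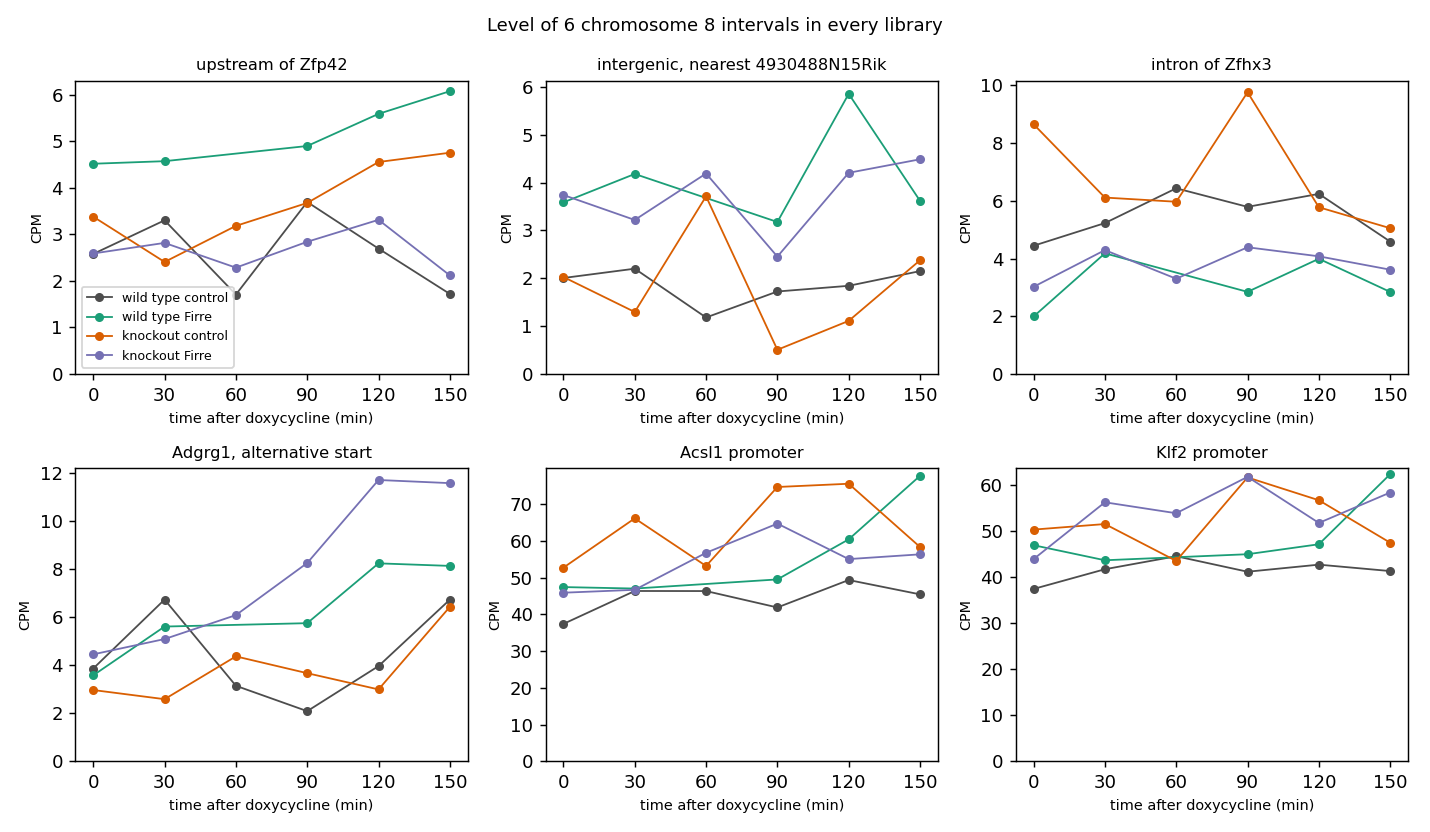
Level (CPM, y axis from 0) of 6 chromosome 8 intervals in every library against time after doxycycline (min), 1 colour per line. At the interval upstream of Zfp42 the wild type Firre line lies above the wild type control at each time, and at the Zfhx3 intron both Firre lines lie below both control lines, from 0 min on.

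The transgene contrasts themselves differed between the backgrounds at 21 chromosome 8 intervals (0.305% against a background of 0.266%, or 0.128% more positive and 0.138% more negative), 11 with a more positive and 10 with a more negative contrast in the knockout background. This was the test of the interaction. The 2 smallest p on either side were at the end of Nsd3 (1.11, SE 0.23, edgeR adjusted p = 0.0088), in exon 3 of 5 of Thsd1 (0.89, SE 0.19, adjusted p = 0.0101), upstream of Zfp42 (-1.38, SE 0.25, adjusted p = 0.000971) and near Gm45703 (-0.84, SE 0.16, adjusted p = 0.00165). Nsd3, which makes a histone methyltransferase, had 3.71 to 6.53 CPM at that interval in the wild type control, 2.26 to 5.09 CPM in wild type Firre libraries, 2.28 to 3.56 CPM in the knockout control and 4.86 to 5.99 CPM in the knockout Firre line. The knockout pair does not overlap and the wild type pair does. Thsd1 and the Nsd3 interval were not called without the wild type control library of 90 min (adjusted p = 0.0531 and 0.0679). Scaling by total counts gave 19 more positive and 10 more negative.

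Between the 2 Firre lines 61 chromosome 8 intervals were called (0.886% against a background of 1.16%, or 0.727% higher and 0.43% lower), 31 higher and 30 lower in the knockout background, and scaling by total counts gave 16 and 43. Of the promoters, 5 were higher and 4 lower of 1131 (background 1.04% and 0.232%). The promoter of the noncoding gene Gm26887 (chr8:84197226-84198870) had 22.6 to 29.5 CPM in wild type Firre libraries (median 28.5) and 33.0 to 38.1 CPM in the knockout Firre line (median 34.1), without overlap, and a difference of 0.38 (SE 0.09, edgeR adjusted p = 0.00973). The first start of Adgrg1 was 0.42 higher (SE 0.11, adjusted p = 0.0342), at 6.77 to 9.44 CPM against 8.76 to 12.2 CPM. Slc27a1, a fatty acid transporter gene, was 0.37 higher (SE 0.09, adjusted p = 0.0224), and the promoters of Spg7 (a mitochondrial protease, -0.58, SE 0.16, adjusted p = 0.0458) and Nat1 (an N-acetyltransferase, -0.57, SE 0.16, adjusted p = 0.0499) were lower. Of the 16 named intervals of this comparison, 0 were called with every library left out in turn: the count on the chromosome was 14 without the wild type Firre library of 90 min and 209 without that of 150 min.

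After induction, 0 chromosome 8 intervals were called for the mean Firre response, the change from 0 min in the Firre lines beyond that in the controls (edgeR, background 0%). At an unadjusted p under 0.05 there were 250 of 6882 (3.63%, against 3.77% over all tested intervals), and DESeq2 and limma-voom called 0 on the chromosome, with 43 and 250 at an unadjusted p under 0.05. The response of the control lines to doxycycline gave 0 as well (background 0%), with 355 at an unadjusted p under 0.05 (5.16% against 5.26%), and again 0 by DESeq2 (87 unadjusted) and by limma-voom (377 unadjusted). The smallest p of the Firre response lay in intron 2 of 9 of Ctcf (chr8:105650402-105651424, 1.36, SE 0.41) and at Gm45746 (0.72, SE 0.22) among positive values, and near Gm8623 (-1.05, SE 0.30) and Gm10617 (-1.69, SE 0.49) among negative ones, each at an adjusted p of 1.00. For the drug they were at the promoter of Csnk2a2 (casein kinase 2, 0.44, SE 0.13, edgeR adjusted p = 0.919) and in an intron of Tacc1 (0.41, SE 0.13). Among negative values they were at the end of Rfx1 (-0.83, SE 0.23) and a promoter of the growth factor receptor gene Fgfr1 (-0.81, SE 0.23, adjusted p = 0.901). The latter lies near Gm16159 and is not the strongest Fgfr1 promoter interval, which had 20.2 to 23.1 CPM in wild type control libraries. With 1 library per line and time, the 2 backgrounds are the replicates of this test, and median SEs on the chromosome were 0.32 for the Firre response and 0.22 for that of the drug, against 0.16 to 0.17 for the line comparisons.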

How the data were processed

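Omni-ATAC libraries of mouse embryonic stem cells were counted over 1 consensus interval set. The values are raw read counts per interval as deposited by the authors, on mm10; MACS2 2.2.7.1 and featureCounts are named in the submitters' processing notes, and for the aligner, duplicate removal and strand handling the entry is: not given in the sources used here. Annotation classes and nearest starts are those of the authors' deposited peak list. A promoter interval is one in the authors' promoter class or within 1000 bp of a TSS.

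Counts were scaled by TMM, filtered with a minimum count of 10 and fitted with edgeR 4.0.16 (quasi-likelihood, R 4.3.3) across all intervals, with terms for line and time, and Benjamini-Hochberg adjustment over 129515 intervals. The responses to induction and doxycycline had a fit with transgene by time terms, in which the backgrounds act as replicates. Offsets used log2 CPM with a prior count of 2, and exact two-sided permutation tests over libraries. DESeq2 1.42.0, limma 3.58.1, other scalings and filters, covariates and left-out libraries were alternatives, of which several for the difference of the transgene contrasts and those for the gene list medians were chosen after seeing the data. The fits were tested on simulated data. Totals of 5725518 to 14977148 counts per library make 3 counts equal to 0.394 CPM in the median library, and such limits cover counting error only.

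For each line comparison and direction, the text draws on the 4 called promoter intervals and the 4 other called intervals with the largest difference, at a mean of at least 1 CPM and 1 interval per gene. For the other tests it draws on the 2 smallest p per direction, and a short list of genes was always included. The intervals, lists and tests were chosen with earlier results of these data known.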

Additional observations from a re-analysis of the deposited data

Results flagged for a closer look

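Single libraries stood apart from the others of their line at 20 of 316 groups examined by Dixon's criterion, and chance alone flags about 1 in 20 groups. Among the bins, the wild type Firre library of 30 min was apart at 10 to 20 Mb (offset 0.0325), and that of 150 min at 50 to 60 Mb (0.0602). The 150 min library of that line was also apart at the promoters of Klf2 (62.3 CPM) and Ctcf (64.9 CPM), near Gm45694 (8.66 CPM) and at the Fgfr1 promoter near Gm16159 (1.16 CPM). Its share of counts in promoters was 44.3%, the highest of all libraries, and the part of that share in these values was not tested. The 0 min library was apart near Gm8623 (6.51 CPM) and near Ing1 (0.930 CPM), and that of 120 min at Lrp2bp (3.99 CPM).

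In the wild type control, the 0 min library was apart at the Ctcf intron (4.44 CPM), the Csnk2a2 promoter (11.6 CPM) and the end of Rfx1 (6.02 CPM). It was also apart at the Fgfr1 promoter interval near Gm16159 (5.45 CPM). All are intervals with the smallest p for a response from 0 min. Its 120 min library was apart at the Fam155a intron (2.27 CPM) and near Ing1 (0.851 CPM), and its 90 min library at the end of Nsd3 (6.53 CPM). In the knockout control, the 30 min library was apart at the Arhgef7 intron (1.67 CPM) and the Mcf2l promoter (12.2 CPM). In the knockout Firre line, the 90 min library was apart near Gm1943 (2.97 CPM) and that of 150 min in the intron of Galns (0.249 CPM, under the level of 3 counts in the median library).

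The contrast of Firre line to control differed between the knockout and the wild type background by the test of the interaction at the end of Nsd3 (1.11), in the exon of Thsd1 (0.89), upstream of Zfp42 (-1.38) and near Gm45703 (-0.84), each as the log2 contrast in the knockout minus that in the wild type background.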

How the results depend on the processing

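The offsets of chromosome 8 turned sign without chromosome 11 among the other autosomes, to 0.00206 for knockout control to wild type control and to 0.00224 for knockout Firre to wild type Firre. With each library left out they ran from -0.0147 to -0.00683, 0.00812 to 0.0127, 0.00115 to 0.0103 and -0.00970 to -0.00309, in the order of the comparisons in the report. For the runs, windows of 50 intervals left 18, 4 and 0 windows for knockout control to wild type control, knockout Firre to knockout control and knockout Firre to wild type Firre, and a size of 0.3 left 4, 0 and 0. Leaving out both knockout control libraries with the highest promoter share (30 and 90 min), the second had 50.

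Of called intervals, DESeq2 gave 276, 11, 1 and 6 for knockout control to wild type control, knockout Firre to knockout control, wild type Firre to wild type control and knockout Firre to wild type Firre, and 2 for the difference of the transgene contrasts. limma-voom gave 35 between the Firre lines, and a fit with no term for time 36. Leaving out both knockout control libraries with the highest promoter share (30 and 90 min), 70 and 39 were called for the first comparisons and 13 for the difference. With the promoter share as a covariate the first had 0, wild type Firre to wild type control 3, the Firre lines 25 and the difference 10. Loess offsets gave 270 for the first and 34 for the difference. Without the 0 min libraries 36, 3 and 6 were called for knockout Firre to knockout control, wild type Firre to wild type control and the difference. Over all tested intervals the first comparison went from 10324 called to 6074 with DESeq2, 6293 with loess offsets and 56 with the promoter share. Without both the 30 and the 90 min library of the knockout control it had 2135 of 131787. The cause of these changes was not tested.

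With each library left out the counts ran from 228 to 889, from 27 to 78, from 2 to 10, from 14 to 209 and, for the difference, from 8 to 62, against 491, 72, 8, 61 and 21. The lowest were without the knockout control of 90 min, the knockout Firre library of 150 min, the wild type Firre libraries of 0 min and of 90 min and the knockout Firre library of 120 min. The highest were without the knockout control of 150 min, the wild type Firre library of 150 min, of 90 min and of 150 min, and the knockout control of 150 min. The responses to induction and doxycycline and the bins stayed at 0 calls each time, though a difference confined to a single bin could not have passed the adjustment. One named interval reversed, that near Gm45740, at -0.0484 with the promoter share as a covariate. Lines were paired by time, through the term for time in the fit of intervals and through labels exchanged within a time for the offsets, which gave differences of -0.0117, 0.00999, 0.00433 and -0.00614 and passed in 0 of 4 comparisons after adjustment. The smallest exact permutation p of that exchange is 0.03125 or 0.0625, by comparison, so none of the 4 could pass. Intervals of about 1 CPM rest on few counts per library, and the labels name no separate cultures within a line.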
